A study of Mus musculus with 30 samples.

Results

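Hepatic mRNA of 10 genes of lipoprotein biology was followed over 5 diets: Apoa1, Apoa2, Apoa4, Apoa5, Apob, Apoc1, Apoc2, Apoc3 and Apoe, which encode apolipoproteins, and Mttp, which encodes the lipid transfer protein of lipoprotein assembly. The genes were taken by symbol from both tables, which hold 14173 genes. All 10 were present, all are protein coding, and all 10 passed the filter on low counts in every comparison. Male C57BL/6J mice aged 6 months had eaten their diet for 12 weeks and were fasted for 4 h, and 6 livers per diet gave 1 library each. Casein was the protein of Cas-20% (0.57 g methionine and 0.41 g cysteine per 100 g) and of Cas-5% (0.15 and 0.1 g). Soy protein was the protein of Soy-20% (0.22 and 0.22 g), of Soy-20% + SAA, to which sulfur amino acids were added (0.58 and 0.41 g), and of Soy-10% (0.13 and 0.13 g), which the labels give as 11.5% protein. Before the study diets the casein groups had been kept on Cas-20% and the soy groups on Soy-20%. A library counts reads from the 3′ ends of mRNA, so that a count does not grow with the length of a transcript.

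Lipoproteins carry triglyceride and cholesterol through plasma inside a shell of phospholipid and apolipoproteins. The liver builds very low density lipoprotein around ApoB, onto which the product of Mttp loads lipid in the endoplasmic reticulum. ApoA-I and ApoA-II are the main proteins of high density lipoprotein, ApoC proteins and ApoA-V tune how fast lipoprotein lipase removes triglyceride, and ApoE is a ligand for receptors that take up remnants in the liver. ApoA-IV is made mainly in the intestine and, in the mouse, also in the liver.

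Between 7694015 and 14565542 reads per library fell on genes, with a median of 10803734. Libraries 3 to 6 of Soy-20% + SAA stood apart, where expression rose with the GC share of the last 200 transcribed bases, by 0.053, 0.1756, 0.1709 and 0.1949 log2 units per 10% GC. The remaining libraries had values of this slope of −0.0603 to 0.0293. Calls that use Soy-20% + SAA are therefore given also without livers 3 to 6, which leaves 2 livers of that diet, or from a fit that holds the slope as a covariate. Of the hepatocyte markers 8 of 8 were present, at 63662 to 94253 summed CPM (counts scaled to equal library totals). Of 7 enterocyte markers, Vil1, Lct, Alpi, Cdx1 and Cdx2 had no row, and the other 2 summed to 64.1 to 246. Pancreatic acinar markers reached 843 CPM in 1 Soy-10% liver and at most 55.7 on the 4 other diets.

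Together the 10 genes took 5.4% ± 0.454 (SD, n = 30) of all counts. On Cas-20% they took 5.48% ± 0.274, on Cas-5% 5.01% ± 0.206, on Soy-20% 5.33% ± 0.24, on Soy-20% + SAA 6.04% ± 0.483 and on Soy-10% 5.16% ± 0.19 (SD, n = 6 livers each). Apoe alone made up 2.74% and had rank 6 of all genes by total count. Apoa2 followed with 1%, Apoa1 with 0.732%, Apoc1 with 0.503% and Apoc3 with 0.256%. Mttp had rank 1098, with 0.0115%. Apoc2 was far below the others at 0.000561%, rank 8324. Of the 270 bases of its last exon, 265 are also exonic in Gm44805, a gene model on the same strand that has no row in the tables. How reads shared by both were counted is not given in the sources used here, so that each value of Apoc2 is uncertain. Apoc4, its neighbour, had 9225 to 18248 normalized counts, and Apoc2 20 to 119.

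**Figure D1:**
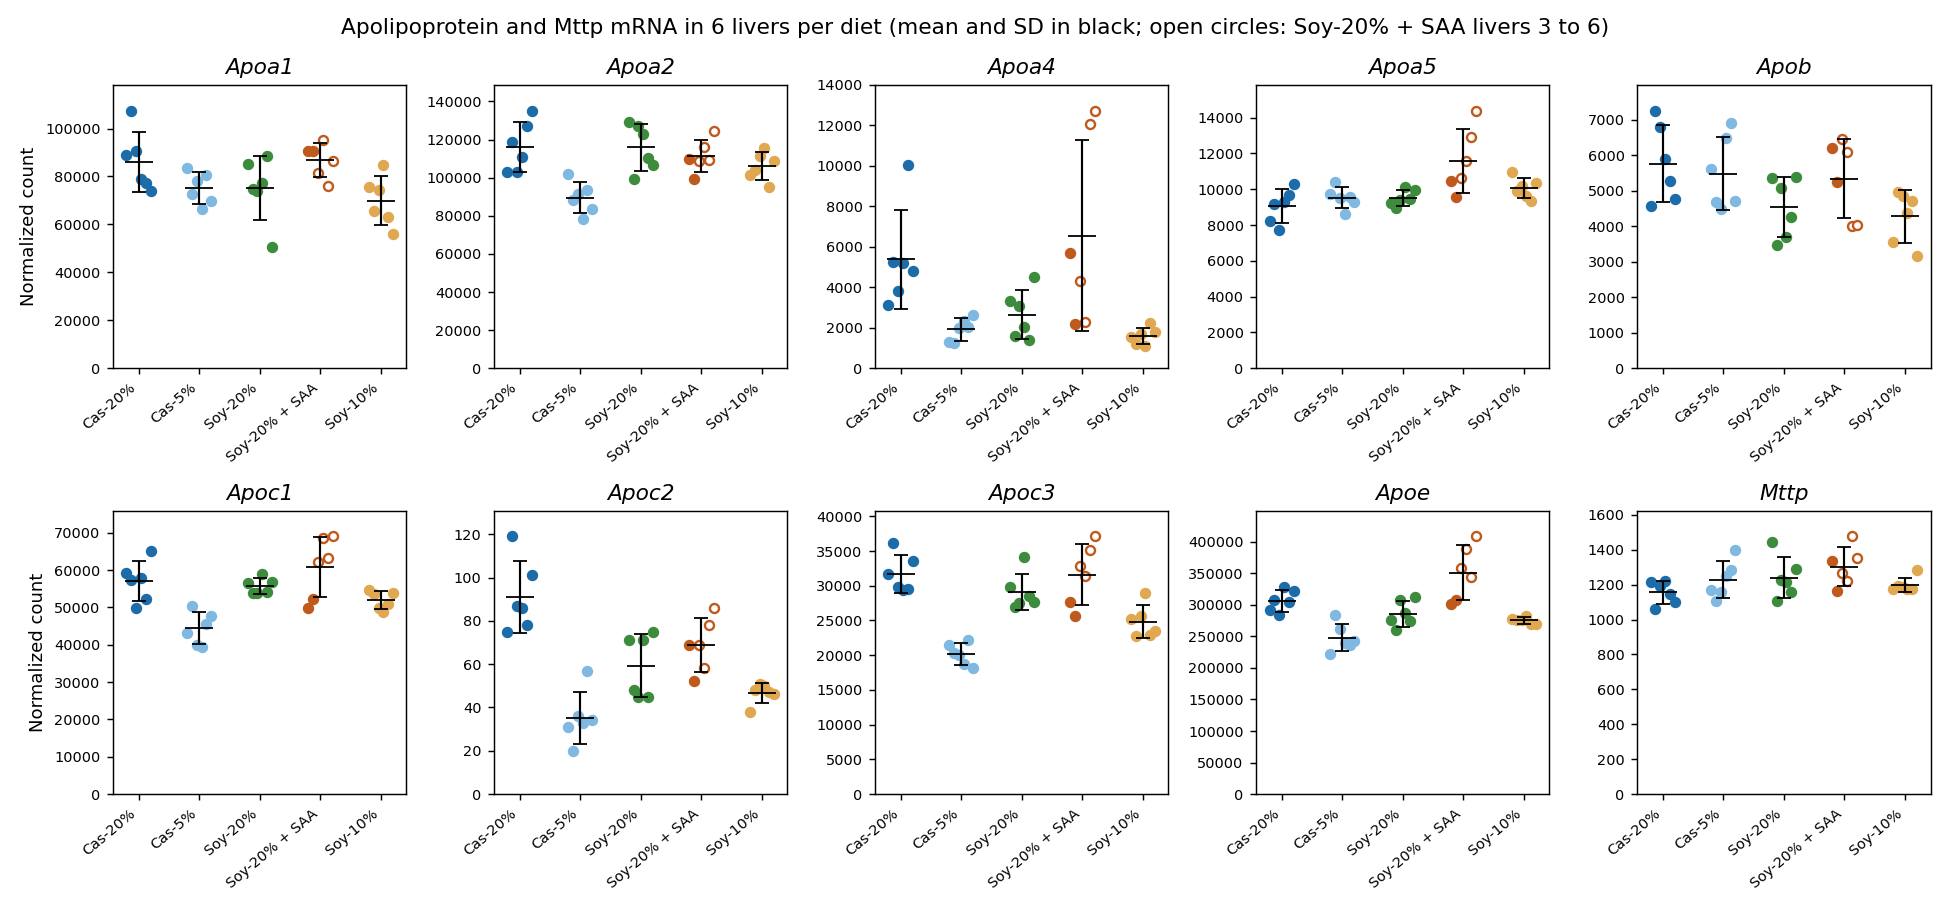
Normalized counts (vertical axes, from 0) of the 10 genes in each of 6 livers per diet (horizontal axes), with the mean and SD in black and Soy-20% + SAA livers 3 to 6 as open circles. Apoc3 lies between 18186 and 22244 in the Cas-5% livers, below all Cas-20% livers (29430 to 36181), while Mttp stays between 1062 and 1476 on all diets.

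A log2 ratio below compares the first diet named with the second, with its standard error (SE), and a gene is said to be called where its edgeR p, adjusted over all genes, did not exceed 0.05. In a test of any difference among the 5 diets 7 of the 10 genes were called, and 43.4% of 12561 genes. Apoc3 (adjusted p = 1.1e-06), Apoc2 (4.6e-06) and Apoa4 (5.4e-05) had the smallest edgeR values, and Apoe, Apoc1, Apoa2 and Apoa5 were the others called. Apoa1, Apob and Mttp were not called (edgeR adjusted p = 0.076, 0.066 and 0.22). Without Soy-20% + SAA livers 3 to 6, or with the GC slope as a covariate, 6 of these 7 genes were called, all but Apoa5. These fits called 3433 of all 13097 and 3536 of all 12561 genes. DESeq2 called 9 of the 10 genes, all but Mttp, and 5743 of all 12561. Upper quartile normalization called 8, with Apob (edgeR adjusted p = 0.037), and 5707 of all genes. A block for the replicate number called 8, with Apoa1 (edgeR adjusted p = 0.041), and 5356 of all genes. The highest diet mean was 4.09 times the lowest for Apoa4, 2.59 times for Apoc2, 1.57 times for Apoc3 and 1.42 times for Apoe, and 1.13 to 1.37 times for the other 6 genes.

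Restriction of casein, Cas-5% against Cas-20%, was accompanied by lower mRNA of 6 of the 10 genes, Apoa4, Apoc2, Apoc3, Apoa2, Apoc1 and Apoe, and by higher mRNA of 0. Among all 12076 genes tested 24.9% were called, 13.3% as lower. In 4 of the 6 genes, Apoa2, Apoa4, Apoc2 and Apoc3, all Cas-5% livers lay below all Cas-20% livers, as did 7.73% of all genes. The median log2 ratio was −0.32 over the 10 genes and 0.02 over all genes. Restriction of soy protein, Soy-10% against Soy-20% + SAA, was accompanied by lower mRNA of 5 genes, Apoa4, Apoc2, Apoe, Apoc3 and Apoa1. There 17% of 11983 genes were called, 8.47% as lower. Only Apoc2 and Apoe had no overlap between these diets, as had 3.31% of all genes in that direction. The medians were −0.32 and −0.01. Without Soy-20% + SAA livers 3 to 6, with 2 livers left on that diet, only Apoa4 was called by edgeR, and 317 of all 12483 genes. With the GC slope as a covariate edgeR called 0 of the 10 genes, with 4 at an unadjusted p under 0.05, and 370 of all 11983 genes, with 2116 at an unadjusted p under 0.05. The fewer livers and the libraries that stood apart cannot be told apart in the first of these fits. With Soy-20% as the control, whose livers are other animals, edgeR and DESeq2 each called 0 of the 10 genes. By edgeR 3 of them, Apoa4, Apoc3 and Apoc2, had an unadjusted p under 0.05, and 0.866% of 11897 genes were called (1460 had an unadjusted p under 0.05). DESeq2 called 228 of all 11897 genes there. Both soy comparisons share the Soy-10% livers.

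**Figure D2:**
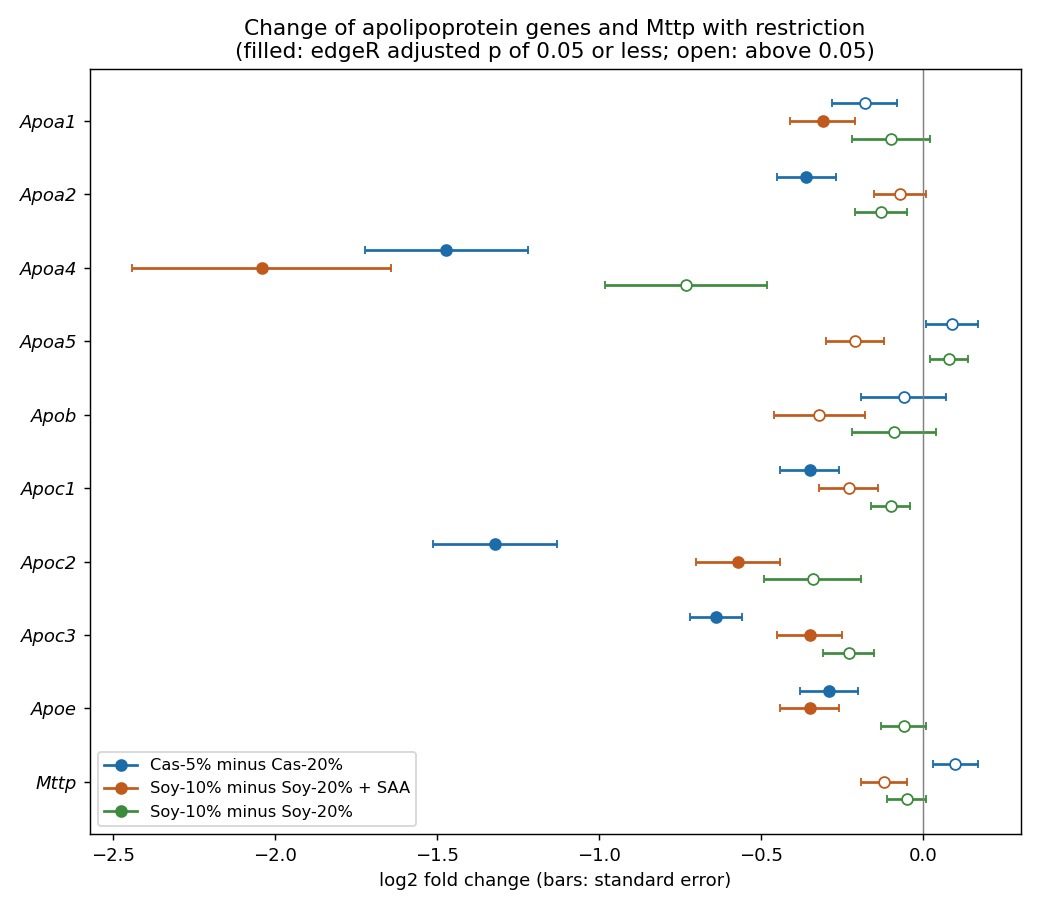
Log2 fold changes (horizontal axis) with SE bars of the 10 genes (vertical axis) after casein restriction and after soy restriction against either soy control. Filled points were called by edgeR: 6 for casein, 5 against Soy-20% + SAA and 0 against Soy-20%, with Apoa4 farthest from 0 in each.

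Apoa4 lies on chromosome 9 of GRCm38 (46240696 to 46243459, plus strand), within a cluster that begins with Apoa1 (46228580 to 46230466, plus) and holds Apoc3 (46232933 to 46235636, minus) and Apoa5 (46268633 to 46271919, plus). Of the 10 genes 8 matched a promoter sequence of RefSeq (GRCm38.p6). Apoc1 and Apoc3 did not. The 250 bases before the start are shown for Apoa4, the gene with the widest range, for Apoe, the most abundant one, and for the assembly genes Apob and Mttp. Apob and Mttp were not called by edgeR with TMM normalization and no block. The RefSeq starts of Apoa4, Apob and Mttp lie inside the gene spans given here. Capitals mark 3 motifs searched on both strands: CAAAGNNCA, letters of many binding sites of the liver factor HNF4A, TATAAA of the TATA box, and TGACGT of cAMP response elements.
Apoa4, chr9:46240594-46240843, plus strand: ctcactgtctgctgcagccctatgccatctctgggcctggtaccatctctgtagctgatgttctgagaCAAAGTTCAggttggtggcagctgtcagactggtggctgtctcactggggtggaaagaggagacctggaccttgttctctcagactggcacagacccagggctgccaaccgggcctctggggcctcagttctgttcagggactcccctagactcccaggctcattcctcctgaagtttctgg
Apoe, chr7:19699189-19699438, minus strand: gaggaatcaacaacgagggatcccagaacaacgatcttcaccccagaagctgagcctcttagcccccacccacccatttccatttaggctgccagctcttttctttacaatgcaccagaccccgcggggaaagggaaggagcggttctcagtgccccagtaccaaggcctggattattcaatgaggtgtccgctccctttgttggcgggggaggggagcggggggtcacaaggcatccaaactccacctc
Apob, chr12:7977427-7977676, plus strand: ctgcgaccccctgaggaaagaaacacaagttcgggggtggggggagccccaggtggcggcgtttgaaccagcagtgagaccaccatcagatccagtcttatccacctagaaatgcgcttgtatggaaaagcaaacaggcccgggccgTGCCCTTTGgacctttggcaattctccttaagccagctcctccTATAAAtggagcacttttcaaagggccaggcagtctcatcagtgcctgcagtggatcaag
Mttp, chr3:138143419-138143668, minus strand: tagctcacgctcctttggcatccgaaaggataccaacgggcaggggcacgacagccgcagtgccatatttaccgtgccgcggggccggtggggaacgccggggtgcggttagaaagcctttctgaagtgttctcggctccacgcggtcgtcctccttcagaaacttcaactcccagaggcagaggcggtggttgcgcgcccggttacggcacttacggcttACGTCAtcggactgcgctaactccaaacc

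CAAAGNNCA begins 182 bases before the start of Apoa4 on the plus strand of the gene (CAAAGTTCA) and 103 bases before that of Apob on the opposite strand (TGCCCTTTG), and 5.49% of 32851 promoters of this length hold it. TATAAA begins 60 bases before the start of Apob. It is also found before Apoa2, Apoa5 and a later start of Apoe, and in 12.4% of promoters. TGACGT is found in 1 of the genes, Mttp, 29 bases before the start on the opposite strand (ACGTCA), and in 6.47% of promoters. These matches describe the letters of the windows shown and say nothing of binding. Among the 4 windows, that of Apoe at its first start holds none of the motifs.

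Of the apolipoproteins of high density lipoprotein and ApoA-IV, Apoa4 changed most. Its normalized count ran from 3119 to 10060 in Cas-20% livers (median 5010) and from 1243 to 2627 in Cas-5% livers (median 2037). All Cas-5% livers were below all Cas-20% livers. Apoa4 was 2.77-fold lower after casein restriction (log2 ratio −1.47, SE 0.25, edgeR adjusted p = 0.00033). Soy-20% + SAA livers 1 to 6 had 5702, 2191, 4322, 2303, 12068 and 12729, and the Soy-10% livers 1122 to 2237 (median 1635). Livers 5 and 6 of the former were above every other liver of the study, whereas liver 2 lay just below and liver 4 just above the highest Soy-10% liver. The log2 ratio of Apoa4 with soy restriction was −2.04 (SE 0.40, edgeR adjusted p = 0.0056). Without livers 3 to 6 it was −1.31 (SE 0.27, edgeR adjusted p = 0.024), and with the GC slope as a covariate −1.27 (SE 0.43, edgeR adjusted p = 0.13). Against Soy-20%, where counts ran from 1401 to 4512 (median 2565), it was −0.73 (SE 0.25, edgeR adjusted p = 0.2). In the order of diet means, only the step from Cas-20% (5383 ± 2440, SD, n = 6) to Soy-20% (2655 ± 1201) exceeded the larger SD of the neighbours. Gm47528 and Gm10680 overlap Apoa4 on the opposite strand. The 2 enterocyte markers with a row, Fabp2 and Slc5a1, summed to 150 to 246 CPM on Soy-20% + SAA and 77 to 144 on Soy-10%, without overlap, and 1 of them was called as lower there, but 0 without livers 3 to 6. On Cas-20% they summed to 90 to 214 and on Cas-5% to 64.1 to 125, with 1 called as higher and 1 as lower. Their part in the changes of Apoa4 was not tested.

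Apoa1, the main protein of high density lipoprotein, had 73738 to 107426 normalized counts on Cas-20% (median 83752) and 66226 to 83344 on Cas-5% (median 75299). These ranges overlapped, and the log2 ratio of −0.18 (SE 0.10) was not called (edgeR adjusted p = 0.2). On Soy-20% + SAA it had 75887 to 95304 (median 88403), and on Soy-10% 55852 to 84885 (median 70049). Apoa1 was called as lower in that comparison, by −0.31 in log2 units (SE 0.10, edgeR adjusted p = 0.047), with overlapping ranges. The call was kept in 2 of 12 fits that each left out 1 liver, those that left out liver 5 of Soy-20% + SAA or liver 4 of Soy-10%. The change was −0.38 without livers 3 to 6 (SE 0.13, edgeR adjusted p = 0.16), −0.30 with the GC slope as a covariate (SE 0.12, edgeR adjusted p = 0.2), and −0.10 against Soy-20% (SE 0.12, edgeR adjusted p = 0.81). No neighbours in the order of its 5 diet means differed by more than the larger SD.

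Apoa2 (chromosome 1, 171225054 to 171226379, plus strand), the other main protein of high density lipoprotein, ran from 102774 to 135116 in Cas-20% livers (median 114608) and from 78543 to 101769 in Cas-5% livers (median 89917). The groups did not overlap, by a narrow margin. Apoa2 fell by 0.36 in log2 units (SE 0.09, edgeR adjusted p = 0.0084), and the call held in 12 of 12 fits without 1 liver. On soy diets it was 115822 ± 12239 on Soy-20%, 111290 ± 8287 on Soy-20% + SAA and 106020 ± 7415 on Soy-10% (SD, n = 6 each). Neither soy restriction comparison called it (log2 ratios −0.07 and −0.13, edgeR adjusted p = 0.54 and 0.56), and the first was 0.01 without livers 3 to 6 and 0.04 with the GC slope as a covariate. Cas-5% was the only diet whose mean lay beyond the larger SD from the next one, Soy-10%.

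Among the genes that bear on triglyceride removal, Apoc3, which encodes an inhibitor of lipoprotein lipase, had the smallest p of the 10 genes in the test over 5 diets. It ran from 29430 to 36181 in Cas-20% livers (median 30711) and from 18186 to 22244 in Cas-5% livers (median 20163). A wide gap separated both groups. Apoc3 was 1.56-fold lower on Cas-5% (log2 ratio −0.64, SE 0.08, edgeR adjusted p = 1.5e-05), and −0.60 to −0.67 with any 1 liver left out. On Soy-20% + SAA livers 1 to 6 had 27641, 25641, 32834, 31350, 35103 and 37102, and on Soy-10% the range was 22795 to 29028 (median 24357). Livers 1 and 2 of the former lay within the Soy-10% range and livers 3 to 6 above it. The soy change of −0.35 (SE 0.10, edgeR adjusted p = 0.026) became −0.11 without livers 3 to 6 (SE 0.10, edgeR adjusted p = 0.64) and −0.12 with the GC slope as a covariate (SE 0.09, edgeR adjusted p = 0.51). Against Soy-20% (26947 to 34086, median 28088) it was −0.23 (SE 0.08, edgeR adjusted p = 0.2).

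Apoc3 was also the only one of the 10 genes called between both restricted diets, Cas-5% and Soy-10%, where 10.7% of 12041 genes were called, 6.14% as lower. All Cas-5% livers lay below all Soy-10% livers, as in 4.09% of genes, and the log2 ratio was −0.28 (SE 0.07, edgeR adjusted p = 0.019). The casein effect minus the soy effect on Apoc3 was −0.30 (SE 0.12), not called in the fit of 24 livers (edgeR adjusted p = 0.12). It was called at −0.54 without Soy-20% + SAA livers 3 to 6 (SE 0.13, edgeR adjusted p = 0.027), at −0.47 with the GC slope as a covariate (SE 0.11, edgeR adjusted p = 0.012) and at −0.42 with Soy-20% as the soy control (SE 0.11, edgeR adjusted p = 0.017).

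Apoc1 (chromosome 7, 19689481 to 19692660, minus strand), whose product hinders uptake of remnants, had 49900 to 65039 normalized counts on Cas-20% (median 57704) and 39518 to 50287 on Cas-5% (median 44331). A single pair of livers overlapped, since the highest Cas-5% liver exceeded the lowest Cas-20% liver. The fall was 0.35 in log2 units (SE 0.09, edgeR adjusted p = 0.0071), that is 1.27-fold. On Soy-20% + SAA livers 1 and 2 had 49747 and 52180 and livers 3 to 6 had 62172 to 69006, against 48722 to 54645 on Soy-10%. The change of −0.23 with soy restriction (SE 0.09, edgeR adjusted p = 0.085) was 0.02 without livers 3 to 6 (SE 0.08, edgeR adjusted p = 0.94) and −0.02 with the GC slope as a covariate (SE 0.08, edgeR adjusted p = 0.92). Apoc2 (chromosome 7, 19671579 to 19677941, minus strand), the gene of the activator of lipoprotein lipase, had 75 to 119 normalized counts on Cas-20% and 20 to 57 on Cas-5%. It fell by 1.32 in log2 units (SE 0.19, edgeR adjusted p = 6.2e-05), without overlap and with the doubt about shared reads given above. On Soy-20% + SAA it had 52 to 86 and on Soy-10% 38 to 51, again without overlap (log2 ratio −0.57, SE 0.13, edgeR adjusted p = 0.013). Without livers 3 to 6 the value was −0.39 (SE 0.18, edgeR adjusted p = 0.3), and with the GC slope as a covariate −0.39 (SE 0.17, edgeR adjusted p = 0.23). Between Cas-20% and Soy-20% (45 to 75) it was higher in all Cas-20% livers, as were 1.16% of genes, with a log2 ratio of 0.62 (SE 0.16, edgeR adjusted p = 0.05, above the threshold before rounding).

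Apoa5, whose product promotes the action of lipoprotein lipase, was called among the 5 diets (edgeR adjusted p = 0.005), a call that was lost without Soy-20% + SAA livers 3 to 6 (edgeR adjusted p = 0.38) and with the GC slope as a covariate (edgeR adjusted p = 0.2). In the 7 pairs of diets compared edgeR did not call it. It was 9061 ± 943 on Cas-20%, 9525 ± 597 on Cas-5%, 9514 ± 451 on Soy-20%, 11584 ± 1789 on Soy-20% + SAA and 10053 ± 571 on Soy-10% (SD, n = 6 each). The 4 Soy-20% + SAA livers that stood apart had 10606 to 14383, and livers 1 and 2 had 10461 and 9550. No neighbours in the order of means differed by more than the larger SD. After casein restriction its log2 ratio was 0.09 (SE 0.08, edgeR adjusted p = 0.46). With soy restriction it was −0.21 (SE 0.09, edgeR adjusted p = 0.13), −0.0005 without livers 3 to 6, 0.02 with the GC slope as a covariate, and 0.08 against Soy-20%. Gm47544 overlaps Apoa5 on the opposite strand.

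Apoe (chromosome 7, 19696109 to 19699188, minus strand), the gene of the remnant ligand, ran from 284599 to 328499 in Cas-20% livers (median 306232) and from 222756 to 284715 in Cas-5% livers (median 241522). The highest Cas-5% liver exceeded the lowest Cas-20% liver by a small amount and the rest were apart. Apoe fell by 0.29 in log2 units (SE 0.09, edgeR adjusted p = 0.019), and this call was lost with the GC slope as a covariate (−0.27, SE 0.10, edgeR adjusted p = 0.059). Soy-20% + SAA livers 1 to 6 had 301237, 307053, 358912, 388201, 343955 and 408577, and the Soy-10% livers 269635 to 283011 (median 275902). All of the former were above all of the latter, and livers 3 to 6 were the 4 highest of the study. The soy change of −0.35 (SE 0.09, edgeR adjusted p = 0.017) was −0.15 without livers 3 to 6 (SE 0.08, edgeR adjusted p = 0.39) and −0.17 with the covariate (SE 0.08, edgeR adjusted p = 0.29). Against Soy-20% (259491 to 312138) it was −0.06 (SE 0.07, edgeR adjusted p = 0.81). In the order of means, each step exceeded the larger SD of its neighbours except that from Soy-20% to Soy-10%.

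Apob (chromosome 12, 7977648 to 8016835, plus strand) and Mttp (chromosome 3, 138089854 to 138144968, minus strand), the genes of assembly, were not called in the 7 pairs of diets compared with TMM normalization and no block. Apob was 5760 ± 1087 on Cas-20%, 5479 ± 1032 on Cas-5%, 4544 ± 857 on Soy-20%, 5344 ± 1099 on Soy-20% + SAA and 4275 ± 746 on Soy-10% (SD, n = 6 each). Its livers spread widely within each diet, from 3154 to 7254 in all. The log2 ratio of Apob was −0.06 with casein restriction (SE 0.13, edgeR adjusted p = 0.79) and −0.32 with soy restriction (SE 0.14, edgeR adjusted p = 0.12), where it was −0.43 without livers 3 to 6 (SE 0.15, edgeR adjusted p = 0.17) and −0.51 with the GC slope as a covariate (SE 0.17, edgeR adjusted p = 0.12). Cas-5% against Soy-10% gave 0.38 (SE 0.12, edgeR adjusted p = 0.059), and Apob was called there by DESeq2 (0.37, adjusted p = 0.037), by edgeR with upper quartile normalization (0.41, adjusted p = 0.04) and by edgeR with the replicate number as a block (0.38, adjusted p = 0.032). Mttp was 1156 ± 64.9 on Cas-20%, 1227 ± 105 on Cas-5%, 1239 ± 118 on Soy-20%, 1303 ± 110 on Soy-20% + SAA and 1199 ± 41.8 on Soy-10% (SD, n = 6 each). It was 0.10 higher on the log2 scale in Cas-5% livers (SE 0.07, edgeR adjusted p = 0.31) and −0.12 with soy restriction (SE 0.07, edgeR adjusted p = 0.19), where it was −0.07 without livers 3 to 6 and −0.06 with the GC slope as a covariate. Neither gene had a step in its order of means above the larger SD. The 3′ end of Mttp had the lowest GC content of the 10 genes, 36.0%, and that of Apoa4 the highest, 57.0%. Trmt10a and Gm43691 overlap Mttp on the opposite strand.

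**Figure D3:**
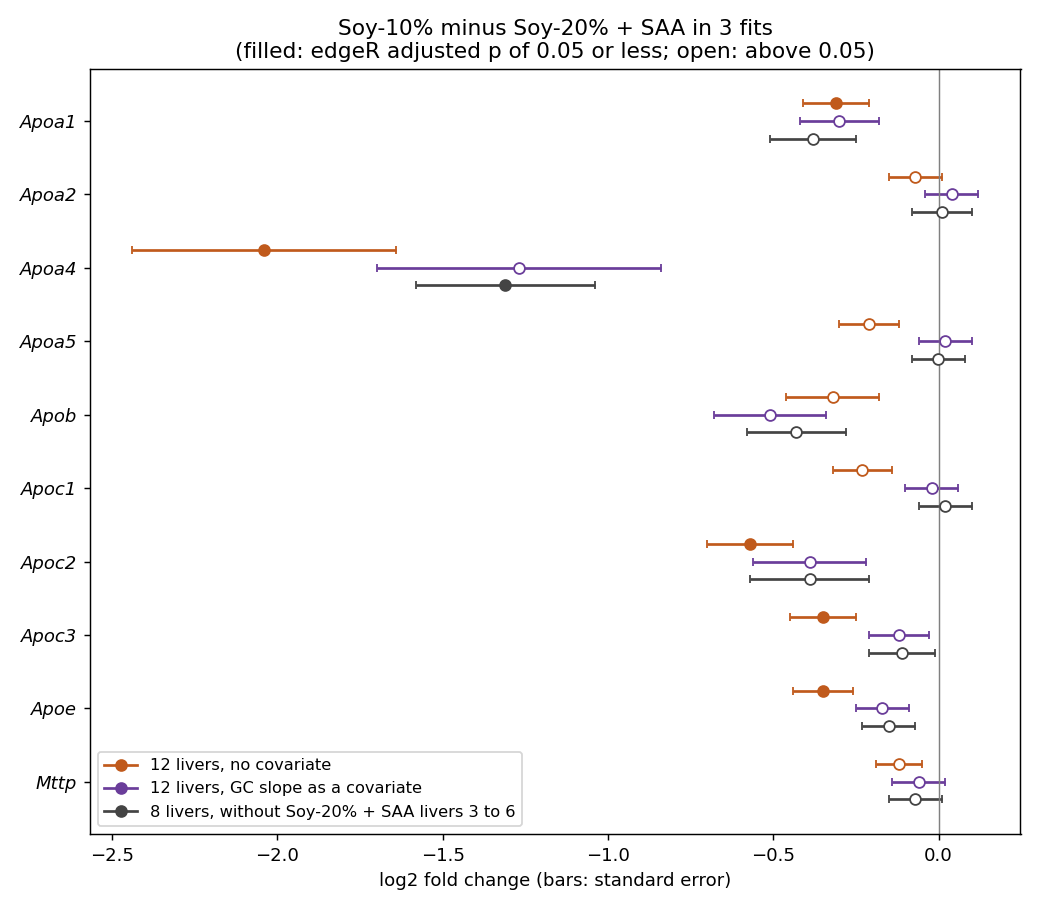
Log2 fold changes (horizontal axis) with SE bars of the 10 genes (vertical axis) after soy restriction in 12 livers, in 12 livers with the GC slope as a covariate, and in 8 livers without Soy-20% + SAA livers 3 to 6. Filled points, 5, 0 and 1 in these fits, were called by edgeR, and Apoe moves from −0.35 to −0.17 and −0.15.

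The levels of the genes moved with the GC slope of the library to unequal degrees. Over 30 livers, which share diets, Pearson r of log2 CPM with the slope was 0.78 for Apoe, 0.62 for Apoc1, 0.59 for Apoc3, 0.51 for Apoa4 and 0.51 for Apoa5. It was 0.34 for Apoc2, 0.22 for Apoa1, 0.18 for Apoa2, 0.10 for Mttp and −0.13 for Apob. The 3′ ends of Apoe have 44.5% GC and those of Apoa1 56.0%, so that the order of these values was not that of the GC content of the genes. As 4 of the 6 Soy-20% + SAA libraries hold the high slopes, diet and slope cannot be told apart in them. The part of the slope in the levels of Apoe, Apoc1, Apoc3 and Apoa5 on this diet was not tested beyond the values above.

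**Figure D4:**
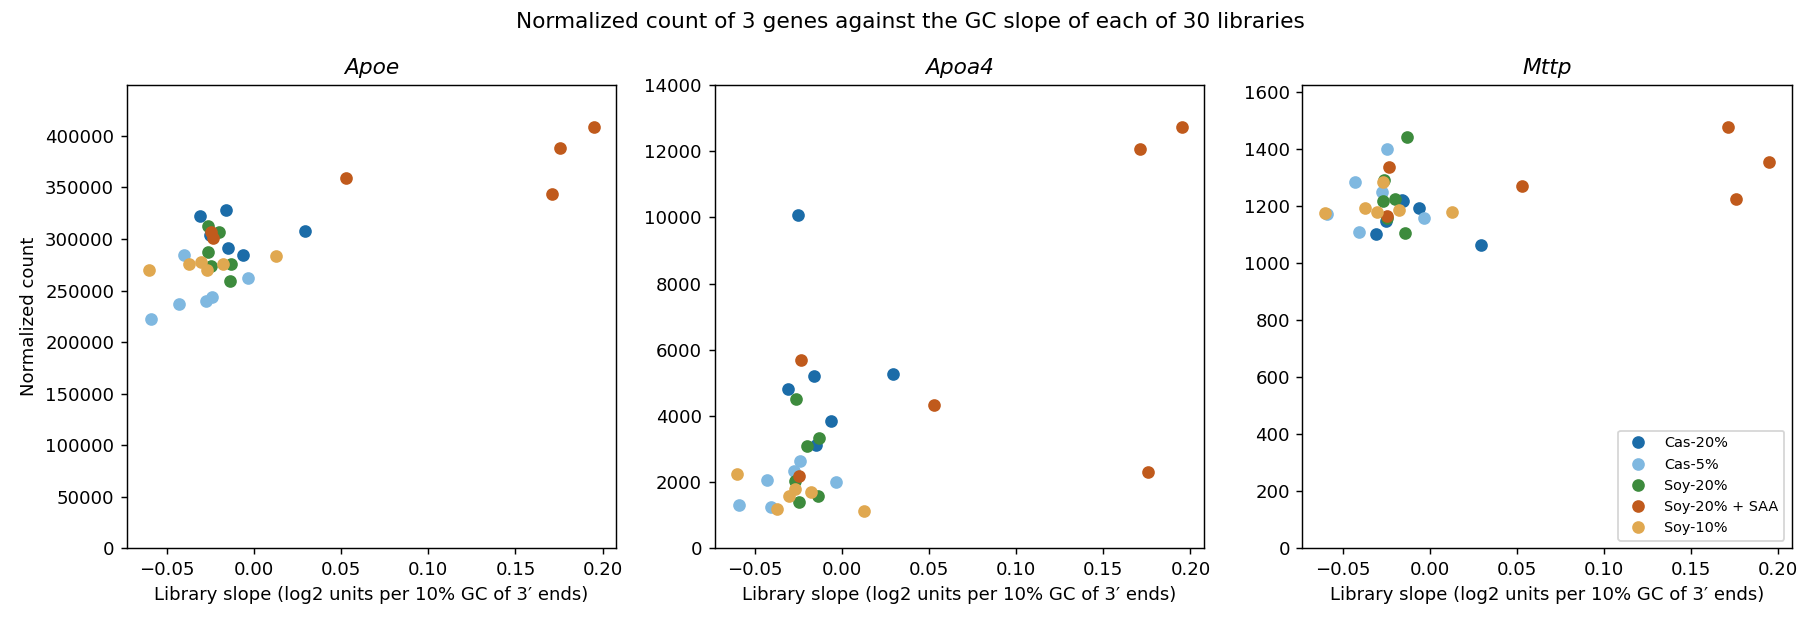
Normalized count (vertical axes, from 0) of Apoe, Apoa4 and Mttp against the slope of each of 30 libraries on the GC content of 3′ ends (horizontal axes), coloured by diet. The 4 libraries with slopes of 0.053 to 0.1949 have the highest Apoe (343955 to 408577), 2 of them the highest Apoa4 (12068 and 12729), and all 4 an Mttp of 1223 to 1476, where the libraries of the other diets have 1062 to 1442.

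Comparisons of control diets called 0 of the 10 genes by edgeR. Between Soy-20% and Soy-20% + SAA, 0.00838% of 11932 genes were called (2892 had an unadjusted p under 0.05), and 3 of the 10 genes, Apoa4, Apoa5 and Apoe, had an unadjusted p under 0.05, each lower on Soy-20%. DESeq2 called 1 of them, Apoe (log2 ratio −0.29, adjusted p = 0.024), and 885 of all 11932 genes. Without livers 3 to 6 of Soy-20% + SAA 0 of the 10 genes had an unadjusted p under 0.05, and with the GC slope as a covariate 1 had. Among all genes 844 of 12396 and 1038 of 11932 had such a p in these fits. Between Cas-20% and Soy-20% + SAA, 2.43% of 11988 genes were called (3143 at an unadjusted p under 0.05), and Apoa5, Apoc2 and Mttp had an unadjusted p under 0.05. There DESeq2 called Apoa5, lower on Cas-20% (−0.36, adjusted p = 0.023), and 1155 of all 11988 genes. By edgeR the value was −0.35 (SE 0.11, adjusted p = 0.069), −0.15 without livers 3 to 6 (SE 0.12, adjusted p = 0.84) and −0.17 with the GC slope as a covariate (SE 0.11, adjusted p = 0.58). Between Cas-20% and Soy-20%, 2.69% of 11875 genes were called (2174 at an unadjusted p under 0.05). Apoa4, with a log2 ratio of 1.02 (SE 0.30, edgeR adjusted p = 0.078), Apoc2 and Apob (0.34, SE 0.14, edgeR adjusted p = 0.19) had an unadjusted p under 0.05. DESeq2 called Apoc2 alone of the 10 genes, and 608 of all 11875 genes.

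Casein and soy effects were called as different from each other for 1 of the 10 genes, Apoc2 (−0.76, SE 0.24, edgeR adjusted p = 0.044), where 8.69% of 12532 genes were called. The call held in 6 of 24 fits without 1 liver, with values from −0.96 to −0.66, and its counts are uncertain as given above. Without Soy-20% + SAA livers 3 to 6 it was −0.94 and not called (SE 0.29, edgeR adjusted p = 0.092). Apoa2 (−0.29, edgeR adjusted p = 0.1), Apoa5 (0.29, edgeR adjusted p = 0.13) and Mttp (0.22, edgeR adjusted p = 0.12) had an unadjusted p under 0.05, like Apoc3. With Apoc2 these were 5 of the 10 genes, beside 3263 of all 12532 genes (26%). For Apoa4 the difference was 0.56 (SE 0.49, edgeR adjusted p = 0.51).

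Within the 2 clusters the correlations between genes were unequal. Over 30 livers, as a description of libraries that share diets and GC slopes, Apoc1 and Apoe on chromosome 7 had a Pearson r of 0.72 (0.59 within diets). Apoc2 had 0.39 with Apoc1 (−0.01 within diets) and 0.33 with Apoe (−0.08 within diets), from counts that are uncertain as given above. On chromosome 9, Apoa1 had r = −0.02 with Apoa4 (−0.49 within diets), 0.17 with Apoc3 and −0.12 with Apoa5, and Apoa4 had 0.56 with Apoc3. Across clusters Apoc2 and Apoc3 had the highest value of the 10 genes, 0.78 (0.45 within diets), then Apoc1 with Apoe, and Apoa4 with Apoc2 at 0.70 (0.51 within diets). Among 12561 genes, those most like Apoa4 were Aqp4, a water channel (0.87, 0.88 within diets), Fads1, a desaturase of polyunsaturated fatty acids (0.87, 0.72) and Stap1 (0.86, 0.68). Most like Apoc3 were Aldh7a1, an aldehyde dehydrogenase (0.90, 0.57 within diets), Tmem86b (0.89, 0.65) and Gnmt, which methylates glycine (0.89, 0.62). For Apoe they were Mtarc2 (0.85, 0.66 within diets), Coasy, of coenzyme A synthesis (0.84, 0.72), and Prelid1 (0.82, 0.70). For Apoa1 they were Heyl (0.75), Gpld1 (0.74) and Kng1 (0.71), and for Apoa2 Atp5d (0.76), Pex16 (0.75) and Atox1 (0.73). Apoc1 was most like BC031181 (0.85), Mmp19 (0.85) and Fuca1 (0.82), and Apoc2 most like C8g (0.89), Slc22a3 (0.89) and Uroc1 (0.88).

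Genes of the same pathway outside the 10 were counted in 6 lists. The shares of all genes called after casein restriction were 24.9% in all, 11.6% as higher and 13.3% as lower. After casein restriction 8 of 11 other apolipoprotein genes were called as lower and 0 as higher, with a median log2 ratio of −0.34. They included Apoc4 (10652 ± 777 on Cas-5% and 15130 ± 1171 on Cas-20%, SD, n = 6 each, log2 ratio −0.49, SE 0.07, edgeR adjusted p = 0.00012), which lies between Apoc1 and Apoc2, Apon (−0.61, edgeR adjusted p = 8.3e-05) and the acute phase gene Saa2 (−1.90, edgeR adjusted p = 0.00077). Of 20 genes of assembly and secretion 3 were higher and 4 lower. Cideb, which takes part in lipidation of very low density lipoprotein, was lower (−0.46, SE 0.06, edgeR adjusted p = 4.6e-05), as was Sar1b, a GTPase of the coats that carry lipoproteins from the endoplasmic reticulum (−0.43, edgeR adjusted p = 0.0014). Mia3, of the same exit sites, was higher (0.34, edgeR adjusted p = 0.0017). Of 12 genes of lipases and plasma remodelling 3 were higher and 3 lower, among them Pltp, of phospholipid transfer (−1.25, SE 0.15, edgeR adjusted p = 1.1e-05), and Pon3 (0.53, edgeR adjusted p = 7.9e-05). Of 14 genes of receptors and uptake 1 was higher and 5 lower. Sdc1, a receptor of remnants, fell by 0.60 in log2 units (SE 0.12, edgeR adjusted p = 0.0013), and Stab1, a scavenger receptor, was higher (0.38, edgeR adjusted p = 0.0039). Of 6 efflux genes 1 was higher, Abcb4 of phospholipid secretion into bile (0.50, edgeR adjusted p = 0.0012). Of 19 transcription factor genes 1 was higher and 6 lower, among them Srebf1, of fatty acid synthesis genes (−1.93, SE 0.16, edgeR adjusted p = 3.5e-07), and Cebpa (−0.56, edgeR adjusted p = 1.5e-05).

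With soy restriction against Soy-20% + SAA, 4 of 11 other apolipoprotein genes were lower, among them Apoc4 (12814 ± 340 against 16008 ± 1647, SD, n = 6 each, −0.32, SE 0.07, edgeR adjusted p = 0.01), Apon (−0.23, edgeR adjusted p = 0.034) and Apof (−0.29, edgeR adjusted p = 0.04). Counts higher and lower were 1 and 1 of 20 for assembly and secretion, 1 and 1 of 12 for lipases and remodelling, 1 and 5 of 14 for receptors and uptake, 1 and 0 of 6 for efflux, and 3 and 2 of 19 for transcription factors. The shares of all genes called there were 17% in all, 8.51% as higher and 8.47% as lower. Lower genes included Pltp (−1.04, SE 0.28, edgeR adjusted p = 0.023) and Sar1b (−0.30, SE 0.07, edgeR adjusted p = 0.012). Cebpb was higher (0.92, SE 0.16, edgeR adjusted p = 0.0026), as were Pon3 (0.38, SE 0.06, edgeR adjusted p = 0.0017) and Abcg5, of sterol secretion into bile (0.33, SE 0.09, edgeR adjusted p = 0.028). Without livers 3 to 6 these lists held 2 calls in all, both higher, in lipases and remodelling. That fit called 317 of all 12483 genes. With Soy-20% as the control 0 genes of the 6 lists were called, and 0.866% of all genes. Some marker genes were called as well, beside 24.9% of all genes after casein restriction and 17% with soy restriction against Soy-20% + SAA. After casein restriction 4 of 5 blood genes were lower (1134 to 2041 summed CPM against 1393 to 3087), 3 of 9 stellate and endothelial genes were higher (632 to 792 against 467 to 593), and of 8 hepatocyte genes 2 were higher and 1 lower (78406 to 94253 against 64799 to 72011). With soy restriction against Soy-20% + SAA, 2 of 11 Kupffer cell and macrophage genes were higher (382 to 647 against 349 to 428), and 0 of 11 without livers 3 to 6. Of 2 cholangiocyte genes tested 1 was lower, and against Soy-20% 1 of 2 was lower too. All 5 cholangiocyte markers summed to 25.2 to 33.6 CPM on Soy-10%, 31 to 48 on Soy-20% + SAA and 35.1 to 51.2 on Soy-20%. The part of these cell types in the falls of Apoa4, Apoc3 and the other genes was not tested, and less RNA per cell and fewer cells of a type cannot be told apart in bulk liver.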

How the data were processed

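Liver RNA of 30 mice, 6 per diet, was sequenced by the authors with the Lexogen QuantSeq 3′ FWD kit on a NextSeq. Per the submitters' processing notes, the QuantSeq pipeline 2.3.6 on Bluebee, R 4.0.3, DESeq2 1.30 and GRCm38 were used. Aligner, counter and annotation release are not given in the sources used here. The first deposited table holds raw counts per gene, in which no gene has a sum under 90 across livers. The second holds a normalized signal, in which the authors scaled each library by its own DESeq2 size factor (0.759 to 1.297). Neither is scaled to length.

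Groups followed the labels. Raw counts were tested over the whole table with edgeR 4.0.16 (filterByExpr, TMM, quasi-likelihood F test, two-sided, Benjamini-Hochberg adjustment over all genes, called at 0.05) in R 4.3.3, on the livers of the diets compared. DESeq2 1.42.0 and limma 3.58.1 on log2 of the deposited normalized counts plus 1 were alternatives, with other normalizations, filters, single livers left out, the replicate number as a block, and the slope of each library on 3′ GC content (GENCODE M21, 10688 genes with a mean count of at least 20). Mice are the replicates. Values per liver are normalized counts. A fold change is 2 to the power of the fitted log2 value. The edgeR script was tested on simulated counts. Correlations used log2 CPM with a prior count of 2.

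The genes and lists were chosen with earlier results of these data known. All 10 genes are named. Up to 3 genes of each list with the smallest adjusted p, and the 3 genes most like each of the 10 genes that was called, were named by rule, except for some that are not reported here. Of 12 other apolipoprotein genes Apod has no row. Tables and figures were made in Python 3.11.15 with pandas 2.3.3, numpy 2.4.6 and matplotlib 3.10.9.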

Additional observations from a re-analysis of the deposited data

Results flagged for a closer look

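A liver far from the others of its diet was searched for in 50 groups, 10 genes in 5 diets, where chance flags about 1 in 20. Of these, 2 were found. Apoa4 in Cas-20% liver 5 (10060 normalized counts) was set apart from the next liver by 0.691 of the range of its group. Without that liver the casein change of Apoa4 was the smallest of those fits, −1.20 on the log2 scale, and still called. Mttp in Soy-10% liver 6 (1282) was set apart by 0.812 of the range, over the 5 other livers at 1174 to 1194.

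The casein and soy effects on Apoc2 differed by −0.76 on the log2 scale (edgeR adjusted p = 0.044) in the test of the difference itself. Its 20 to 119 normalized counts per liver come from a gene that shares most of its last exon with another gene model, and the cause of the difference was not tested.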

How the results depend on the processing

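After casein restriction 6 of the 10 genes were called under each setting except the GC slope as a covariate and limma, which called 5 without Apoe, and with any single liver left out the count stayed at 6 to 6. Among all genes these settings called 2509 to 3557, and 2601 to 2888 with single livers left out. For Soy-10% against Soy-20% + SAA it was 0 with the GC slope as a covariate, 0 with that slope in a fit over 30 livers (chosen after seeing the data), 1 without Soy-20% + SAA livers 3 to 6, 4 with a minimum of 10 counts (Apoa1 lost), 6 in one fit over 30 livers (Apoc1 gained, edgeR adjusted p = 0.035), and 3 to 5 with single livers left out (3 without Soy-20% + SAA liver 6 or without Soy-10% liver 2, 5 or 6). In the same order 370, 282, 317, 1909 and 3077 of all genes were called, and 1219 to 3119 with single livers left out. Against Soy-20% it was 0 to 0, where 62 to 228 of all genes were called, and 50 to 146 with single livers left out. For Soy-20% against Soy-20% + SAA it was 1 with DESeq2, 3 in one fit over 30 livers, and 0 to 2 with single livers left out (Apoe without Soy-20% + SAA liver 1, Apoa4 and Apoa5 without liver 2). Calls over all genes moved with these settings, from 1 in the main fit to 885 with DESeq2 and 1793 over 30 livers. They were 1587 without Soy-20% + SAA liver 1 and 1118 without liver 2. For Cas-20% against Soy-20% + SAA, DESeq2 and the fit over 30 livers called 1, Apoa5, and 1155 and 2331 of all genes. For Cas-20% against Soy-20%, upper quartile normalization, a minimum of 10 counts, DESeq2, limma and both fits over 30 livers called 1, Apoc2. These fits called 308 to 707 of all genes. For Cas-5% against Soy-10% it was 2 with upper quartile normalization, 4 with DESeq2 and 3 with the replicate block, Apob among them in each. All genes called there numbered 1294, 1456 and 1370. The difference of the effects was called for 2 genes, Apoc2 and Apoc3, with the GC slope as a covariate, with it over 30 livers and with Soy-20% as the control, and for 0 to 1 with single livers left out. It was called for 591, 660 and 746 of all genes in these fits, and for 719 to 1941 with single livers left out. Under upper quartile normalization Mttp (0.29) took the place of Apoc2.

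Taken over all genes, livers with the same replicate number did not deviate together (mean r −0.02 for the casein diets and 0.05 for Soy-10% with Soy-20% + SAA). Other pairs of diets were not examined, and a shared factor that acts on single genes was not tested. With the number as a block the SE of Apoa4 went from 0.25 to 0.18 for casein and from 0.40 to 0.25 for soy. That of Apoc2 went from 0.19 to 0.21 for casein. With the replicate block 6 genes were called for casein and 5 for Soy-10% against Soy-20% + SAA.

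Log2 fold changes turned sign only where they were not called. For casein Apob gave 0.02 with the GC slope and −0.14 to 0.01 with single livers left out. For Soy-10% against Soy-20% + SAA, Apoa2 gave 0.04 with the GC slope, 0.01 with it over 30 livers and 0.01 without livers 3 to 6, Apoa5 0.02 with the slope, and Apoc1 0.02 without those livers. Against Soy-20%, Mttp gave −0.08 to 0.002 with single livers left out. For Soy-20% against Soy-20% + SAA, in the same order of settings, Apoc1 gave 0.09, 0.04 and 0.13, and Apoc3 0.08, 0.09 and 0.13. For Cas-20% against Soy-20% + SAA, Apoa4 gave 0.42, 0.35 and 0.45, Apoc1 0.09, 0.05 and 0.16, Apoa1 0.02 and Apob −0.01 with the slope over 30 livers, Apoe 0.01 without livers 3 to 6, and Apoc3 −0.002 with median of ratios size factors or DESeq2 and −0.03 with upper quartile normalization. For Cas-20% against Soy-20%, Apoa2 gave −0.01 with the slope over 30 livers. For the difference of the effects, Apoa4 gave −0.08, −0.07, −0.16 and, with Soy-20% as the control, −0.74, Apoe −0.09, −0.09, −0.15 and −0.24, and Apoa1 −0.09 with that control. The cause of these changes was not tested. Single livers were left out in the 5 comparisons for which such counts are given. Fits without livers 3 to 6 keep 2 Soy-20% + SAA livers.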

Other observations

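The 6 lists of lipoprotein genes outside the 10 were also counted between casein and soy diets. Cas-20% and Soy-20% differ in sulfur amino acids as well as in protein source, and Cas-5% and Soy-10% in protein level. Within each of these pairs the factors cannot be told apart. Between Cas-20% and Soy-20%, where 2.69% of all genes were called, 0 of 11 other apolipoprotein genes, 0 of 20 genes of assembly and secretion, 2 of 12 of lipases and remodelling (both lower on Cas-20%), 1 of 14 of receptors and uptake, 1 of 6 of efflux and 3 of 19 transcription factor genes (all higher) were called. Srebf1, of fatty acid synthesis genes, was 1521 ± 442 on Cas-20% and 698 ± 242 on Soy-20% (SD, n = 6 each, log2 ratio 1.13, SE 0.21, edgeR adjusted p = 0.012). Scarb1, a receptor of high density lipoprotein, was 1764 ± 181 and 1239 ± 153 (0.51, SE 0.09, edgeR adjusted p = 0.0081), Abcg5 472 ± 68.4 and 336 ± 56.4 (0.49, SE 0.12, edgeR adjusted p = 0.04), and Pon3 477 ± 39.1 and 618 ± 50.6 (−0.37, SE 0.07, edgeR adjusted p = 0.014). Cas-20% and Soy-20% + SAA are nearly equal in sulfur amino acids, and 2.43% of all genes were called there. Srebf1 was 1521 ± 442 and 372 ± 186 (2.03, SE 0.30, edgeR adjusted p = 0.013). Abcg5 was 472 ± 68.4 and 297 ± 29.5 (0.67, SE 0.11, edgeR adjusted p = 0.018). Scarb1 and Pon3 were not called. Without livers 3 to 6 this comparison called 3 of all 12498 genes.

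Between Cas-5% and Soy-10%, where 10.7% of all genes were called, counts higher and lower on Cas-5% were 0 and 6 of 11, 1 and 3 of 20, 0 and 1 of 12, 3 and 2 of 14, 2 and 0 of 6, and 2 and 3 of 19 in the same order of lists. Cidec, a lipid droplet gene, was 20.3 ± 3.79 and 156 ± 79.5 (SD, n = 6 each, −2.93, SE 0.29, edgeR adjusted p = 9.3e-06), and Cd36, of fatty acid uptake, 329 ± 60.2 and 560 ± 183 (−0.75, SE 0.17, edgeR adjusted p = 0.0085). Higher on Cas-5% were Lsr, a lipoprotein receptor (4207 ± 305 and 3329 ± 358, 0.36, SE 0.07, edgeR adjusted p = 0.0047), Scarb1 (1377 ± 125 and 1080 ± 116, 0.37, SE 0.08, edgeR adjusted p = 0.0049) and Tm6sf2, of lipoprotein secretion (563 ± 50.3 and 449 ± 59.2, 0.34, SE 0.08, edgeR adjusted p = 0.012).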
